A study of Mus musculus with 8 samples.

Results

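The genes examined here were 39 interferon-stimulated genes (ISGs), which are genes whose transcription rises when a cell is exposed to interferon. They were chosen by symbol, and all 39 were found among the 54532 genes of the deposited liver table. RNA had been sequenced from livers of 2 groups, METTL3-HKD mice (n = 4) and METTL3-Flox mice (n = 4), all after 1 h of partial warm ischemia and 6 h of reperfusion (I/R), with no sham-operated livers among the samples. METTL3-HKD mice carried METTL3 flox/- with Alb-iCre, and the study describes them as heterozygous mice with reduced METTL3 in the liver. METTL3-Flox mice carried METTL3 flox/flox, so the groups differ in the floxed alleles as well as in the Alb-iCre named for METTL3-HKD mice. The albumin promoter drives the Cre in hepatocytes, the loxP sites flank exon 4 of METTL3, and the sequenced RNA came from whole liver, which also holds Kupffer cells, endothelial cells and leukocytes. In such bulk RNA, fewer cells of a type and less RNA per cell cannot be told apart. The study describes both groups as obtained from the same litter, and the labels do not tie single livers to a litter or surgery day, so the p-values measure the spread between these 8 livers.

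Interferons are cytokines that are made after pattern-recognition receptors sense foreign or misplaced nucleic acid. Type I interferons bind IFNAR1 and IFNAR2, and the kinases JAK1 and TYK2 then phosphorylate STAT proteins, among them STAT2, which joins IRF9 in the complex ISGF3 to bind the interferon-stimulated response element (ISRE) in the promoters of ISGs. Interferon gamma signals through IFNGR1 and IFNGR2 with JAK1 and JAK2 and acts on gamma-activated sites (GAS). In the liver, hepatocytes, Kupffer cells and endothelial cells all carry type I interferon receptors.

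ISGs of several classes were at a lower level in METTL3-HKD livers. With limma over 16645 genes, 9 of the 39 members were downregulated in METTL3-HKD relative to METTL3-Flox mice at an adjusted p under 0.05, and 0 were upregulated. Of all genes tested, 6.63% were downregulated and 9.05% upregulated by the same rule. The 9 members were the transcription factors Irf1, Irf7, Irf9 and Stat2, the RNA sensor Ddx58, the antiviral effectors Mx2, Bst2 and Xaf1, and the GTPase Irgm1. At an unadjusted p under 0.05, 21 members were lower and 1 was higher, beside 15.1% and 16.7% of all genes. At the adjusted threshold, voom on the rebuilt reads called 13 members lower and 0 higher, beside 1202 (7.22%) and 1542 of all 16645 genes. A log2 fold change of -1 or less was also met by 5 of the 9, namely Irf7, Mx2, Bst2, Xaf1 and Irgm1, and 1.52% of all genes met both thresholds in this direction and 4.7% in the other. The log2 fold change was negative for 36 members and positive for 3, with a median of -0.81 over the members and -0.00 over all genes tested. The groups did not overlap for 3 of the 39 members, Irf9, Stat2 and Irgm1, all lower in METTL3-HKD livers. Of all genes, 9.95% were separated in this direction and 12.7% in the other, so separation was no more frequent among the members. The exact two-sided permutation p of 0.0286 for each of the 3 follows from the separation itself.

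One liver departed from its group. METTL3-HKD liver 2 had the highest level of the 4 METTL3-HKD livers for 35 of the 39 members, and 23.4% of all genes tested were highest in this liver among the 4. Its level divided by the mean of the other 3 METTL3-HKD livers ranged from 0.973 for Cxcl10 to 5.73 for Ifi44, with a median of 2.67. For 24 members it lay above the METTL3-Flox mean. On the log2 scale, the median member stood 1.03, 1.10 and 1.12 below the METTL3-Flox mean in METTL3-HKD livers 1, 3 and 4, whereas it stood 0.17 above it in liver 2. The 4 METTL3-Flox livers ranged from -0.23 to 0.22 by the same measure. The median coefficient of variation of the members was 63.0% in METTL3-HKD mice and 24.6% in METTL3-Flox mice, beside 18.8% and 18.9% for all genes tested.

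**Figure D1:**
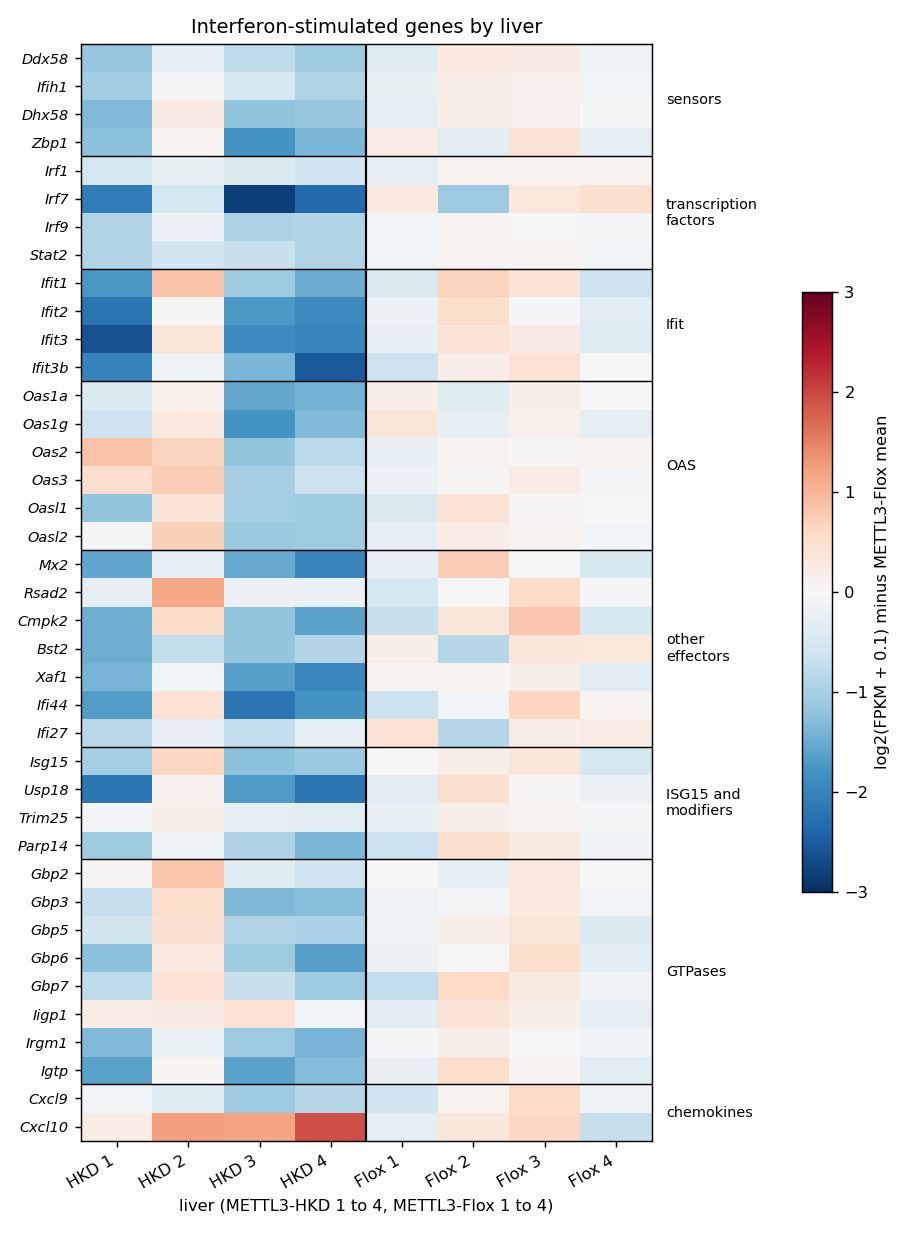
Level of each of the 39 members (rows, grouped by role) in each liver (columns), as log2(FPKM + 0.1) minus the METTL3-Flox mean, with blue below and red above that mean. METTL3-HKD livers 1, 3 and 4 are mostly blue, and METTL3-HKD liver 2 is the highest of its group for 35 members and above the METTL3-Flox mean for 24.

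All 3 of the other METTL3-HKD livers lay below every METTL3-Flox liver for 28 of the 39 members, and 12.2% of all genes tested had this order. This comparison and the fit without METTL3-HKD liver 2 both set aside a liver that stands apart in the members themselves. Falls and calls without this liver, here and for the classes below, are shaped by that choice and add no support of their own. Without METTL3-HKD liver 2, limma called 26 members downregulated, 21 of them also by fold, and 0 upregulated, and 8 of the original 9 were among the 26. Of all genes, 3.44% were then downregulated, 1.18% by both thresholds, and 5.21% were upregulated. Bst2 was no longer called, with an adjusted p of 0.053 and a log2 fold change of -1.17. Without both livers numbered 2, a setting chosen after the values were seen, 19 members were downregulated, 15 of them also by fold, and 0 were upregulated, beside 1.19%, 0.542% and 2.38% of all genes. Omission of METTL3-HKD liver 1 or 4, or of METTL3-Flox liver 3 or 4, left Stat2 as the only downregulated member. Over 17 alternative analyses, Stat2 passed the test in 17, Irf9 and Irgm1 in 11, Irf7, Ddx58 and Xaf1 in 7, and Mx2, Bst2 and Irf1 in 6. The 17 include the fits without METTL3-HKD liver 2 and without both livers numbered 2, whose calls add no support of their own.

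Scaling of the libraries also bore on the counts. The deposited FPKM had already been scaled between libraries. When the same reads were instead scaled to the total on genes, the median of all genes moved by 0.20 in log2 towards METTL3-HKD. Under that scaling Stat2 alone was downregulated (adjusted p = 0.029 by limma), Cxcl10 was upregulated (adjusted p = 0.037), while 2.24% of all genes were downregulated, 0.797% by both thresholds, and 13.8% were upregulated. The median member then stood at -0.60, which is 0.79 below the median gene, compared with 0.81 below it with the deposited scaling.

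Mettl3 itself, the targeted gene on chromosome 14, had 1.33 ± 0.181 FPKM in METTL3-HKD livers and 1.50 ± 0.282 in METTL3-Flox livers (SD, n = 4, exact two-sided permutation p = 0.371). A gene-level FPKM counts reads on all its exons, with 95 to 159 reads per liver here, and so does not measure the loss of exon 4. The libraries held 15861245 to 18434488 reads on genes, and the smallest exact p that 4 against 4 livers can give is 0.0286.

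Promoters of the members are shown first and were searched for the ISRE, the element that ISGF3 binds. RefSeq promoters of GRCm38.p6, running from 250 bases before to 50 bases after the transcription start, were at hand for 30 of the 39 members. The ISRE core was searched as GAAA, any 2 bases and GAAA again on both strands and was present in 19 of the 30 (63.3%), compared with 3.99% of 27025 genes whose promoters of the same length were searched alike (3.44% of 32851 promoters). The GAS core was searched as TTC, any 3 bases and GAA, whose reverse complement is the same motif, and was present in 7 of the 30 (23.3%), compared with 9.55% of the genes (8.30% of the promoters). A match is a stretch of letters and was not read as a bound site. The members were chosen as known ISGs, so a higher share than that of all genes follows in part from the choice. Whole promoters are given for Stat2 and Irgm1, which were downregulated, and for Cxcl10, which had the most positive log2 fold change of the members. ISRE cores are in capitals and each promoter reads 5′ to 3′ on the strand of its gene.
Stat2, plus strand, chr10:128270248-128270547: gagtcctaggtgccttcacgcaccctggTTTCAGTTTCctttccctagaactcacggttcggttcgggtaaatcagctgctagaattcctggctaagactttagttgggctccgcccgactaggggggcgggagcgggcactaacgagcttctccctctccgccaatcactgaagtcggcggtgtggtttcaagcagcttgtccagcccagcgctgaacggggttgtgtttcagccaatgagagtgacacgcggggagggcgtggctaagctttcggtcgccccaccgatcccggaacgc
Irgm1, minus strand, chr11:48871371-48871670: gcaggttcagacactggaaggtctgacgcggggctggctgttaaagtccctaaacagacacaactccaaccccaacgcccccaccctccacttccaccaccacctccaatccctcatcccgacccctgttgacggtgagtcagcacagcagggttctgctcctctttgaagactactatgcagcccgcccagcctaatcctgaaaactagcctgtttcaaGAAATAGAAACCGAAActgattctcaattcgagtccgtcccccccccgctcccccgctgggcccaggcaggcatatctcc
Cxcl10, minus strand, chr5:92348840-92349139: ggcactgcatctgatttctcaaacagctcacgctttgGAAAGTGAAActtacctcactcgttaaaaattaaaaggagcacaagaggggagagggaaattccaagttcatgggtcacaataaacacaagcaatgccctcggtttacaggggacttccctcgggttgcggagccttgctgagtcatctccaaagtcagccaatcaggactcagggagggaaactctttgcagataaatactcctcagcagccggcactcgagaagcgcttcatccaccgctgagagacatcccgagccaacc

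The ISRE core began 222 bases before the start of Stat2, 30 bases before that of Irgm1 and 213 bases before that of Cxcl10. In Irgm1 it was a pair of overlapping cores. Shorter windows are given for members in which cores overlapped or were shared between neighbours, again with the cores in capitals and on the strand of the gene.
Isg15, minus strand, chr4:156200865-156200906: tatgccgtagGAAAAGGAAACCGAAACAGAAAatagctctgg
Bst2, minus strand, chr8:71537577-71537612: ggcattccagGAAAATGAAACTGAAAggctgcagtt
Gbp3, plus strand, chr3:142559989-142560024: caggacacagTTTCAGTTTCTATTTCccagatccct
Oas1a, minus strand, chr5:120907520-120907555: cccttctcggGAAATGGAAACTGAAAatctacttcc
Oas1g, minus strand, chr5:120887606-120887641: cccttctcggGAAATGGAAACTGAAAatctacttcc
Ifit3, plus strand, chr19:34583397-34583426: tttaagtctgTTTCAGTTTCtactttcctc
Ifit3b, plus strand, chr19:34607793-34607822: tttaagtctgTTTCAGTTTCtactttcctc

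Isg15 held 3 overlapping cores that began 78 bases before its start, and Bst2, Gbp3, Oas1a and Oas1g held 2 each. The windows of Oas1a and Oas1g were identical, as were those of Ifit3 and Ifit3b. Of the 9 downregulated members, Stat2, Irgm1, Bst2 and Ddx58 held a core, Irf1, Irf7, Irf9 and Xaf1 held none in this window, and Mx2 had no entry. Members with and without a core were therefore both among those downregulated. Several members are neighbours in the genome (GRCm38, coordinates of the deposited table). The 4 Ifit genes lie within chr19:34550694-34650009, Oas1a, Oas1g, Oas2 and Oas3 within chr5:120730333-120907521, Oasl1 and Oasl2 within chr5:114896936-114937915, and Gbp2, Gbp3, Gbp5 and Gbp7 within chr3:142493978-142638008.

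The transcription factors were the one class in which every member passed the test. Irf7, the factor that amplifies type I interferon production, was at 9.87, 29.8, 6.06 and 8.48 FPKM in the METTL3-HKD livers, listed here and throughout from liver 1 to liver 4, and at 52.0, 20.1, 53.3 and 60.1 FPKM in the METTL3-Flox livers. METTL3-HKD liver 2 and METTL3-Flox liver 2 overlapped, and the remaining livers did not. Its log2 fold change was -1.94 ± 0.506 (SE, adjusted p = 0.035), the largest fall among the members.

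Stat2, the STAT particular to type I and type III interferon signalling, was at 9.55, 12.3, 11.4 and 9.66 FPKM in the METTL3-HKD livers and at 17.0, 19.1, 19.1 and 17.1 FPKM in the METTL3-Flox livers. The groups did not overlap and neither held a liver far from the others (log2 fold change -0.75 ± 0.106, SE, adjusted p = 0.0048). Its adjusted p lay between 0.0031 and 0.029 over the alternatives.

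Irf9, the DNA-binding subunit of ISGF3, was at 6.40, 10.6, 6.15 and 6.40 FPKM in the METTL3-HKD livers and at 11.4, 12.8, 12.0 and 11.8 FPKM in the METTL3-Flox livers. The groups did not overlap, although METTL3-HKD liver 2 came close to the METTL3-Flox range (log2 fold change -0.73 ± 0.170, SE, adjusted p = 0.025). Irf1, a factor induced chiefly by interferon gamma, was at 6.78, 8.45, 7.27 and 6.55 FPKM against 7.98, 10.6, 10.6 and 10.4 FPKM. Its fall was the smallest of the 9 (log2 fold change -0.44 ± 0.125, SE, adjusted p = 0.046), and METTL3-HKD liver 2 overlapped METTL3-Flox liver 1. The exons of Irf7 overlap those of Phrf1 on the opposite strand over 1.19% of their length, those of Irf9 overlap Rnf31 on the same strand over 2.28%, and those of Irf1 overlap Gm17334 on the opposite strand over 3.40%, with the strand setting of the counting not given in the sources used here.

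**Figure D2:**
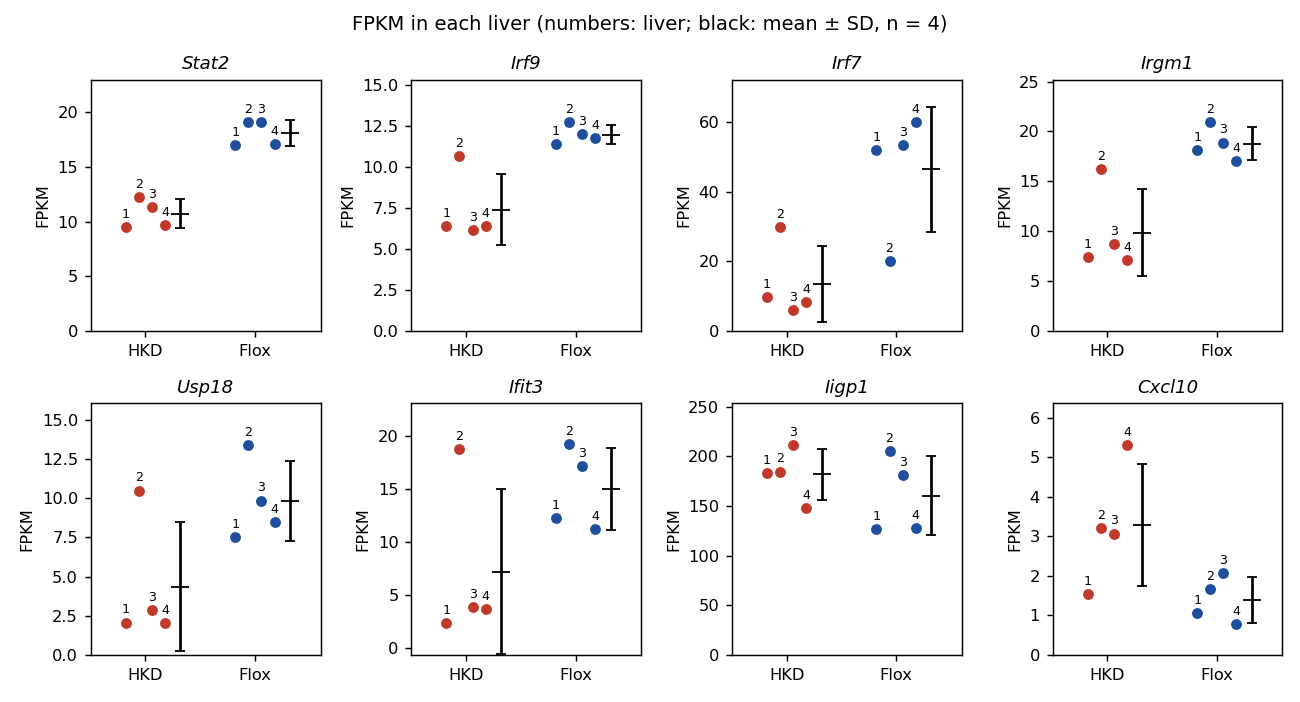
FPKM of 8 members in each liver (points numbered by liver, METTL3-HKD red, METTL3-Flox blue, on linear axes), with the mean and SD of each group in black (n = 4). The groups are separate for Stat2, Irf9 and Irgm1, METTL3-HKD liver 2 lies with or near the METTL3-Flox livers for Irf7, Usp18 and Ifit3, and Iigp1 and Cxcl10 have the higher mean in METTL3-HKD livers.

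Sensors of nucleic acid comprised the RNA helicases Ddx58 (RIG-I), Ifih1 (MDA5) and Dhx58 (LGP2) and the Z-nucleic acid sensor Zbp1. Only Ddx58 of the 4 passed the test, at 3.19, 6.01, 4.15 and 3.34 FPKM in METTL3-HKD livers and 5.56, 8.72, 8.43 and 6.40 FPKM in METTL3-Flox livers (log2 fold change -0.81 ± 0.222, SE, adjusted p = 0.041). METTL3-HKD liver 2 exceeded METTL3-Flox liver 1, and the other METTL3-HKD livers lay below all METTL3-Flox livers. Zbp1, the most abundant sensor, was at 5.001, 12.4, 3.37 and 4.56 FPKM against 13.8, 9.54, 15.6 and 9.75 FPKM. Its log2 fold change of -1.08 ± 0.363 did not pass (SE, adjusted p = 0.075). Ifih1 and Dhx58 had log2 fold changes of -0.63 and -0.85 and did not pass either. Without METTL3-HKD liver 2, all 4 sensors were downregulated.

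The Ifit family, whose proteins bind foreign RNA and block its translation, had the most negative median of the classes (-1.48 in log2), yet 0 of its 4 members passed limma, with 3 at an unadjusted p under 0.05 and 2 called by voom. Ifit3 was at 2.31, 18.8, 3.87 and 3.70 FPKM in METTL3-HKD livers and at 12.3, 19.3, 17.2 and 11.2 FPKM in METTL3-Flox livers. METTL3-HKD liver 2 was thus 5.72 times the mean of the other 3 METTL3-HKD livers and fell inside the METTL3-Flox range (log2 fold change -1.52 ± 0.556, SE, adjusted p = 0.094). Ifit1, Ifit2 and Ifit3b had log2 fold changes of -0.87, -1.45 and -1.51, and their ratios of METTL3-HKD liver 2 to the other 3 were 4.89, 4.22 and 3.69. Without this liver, all 4 were downregulated, with log2 fold changes from -1.44 for Ifit1 to -2.15 for Ifit3. Ifit3 and Ifit3b share 51.2% and 45.0% of their 50-base words with other genes, chiefly each other, so their separate levels are uncertain.

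Oligoadenylate synthetases and their relatives, which activate RNase L or bind double-stranded RNA, gave 0 of 6 past the test, 1 at an unadjusted p under 0.05, 0 by voom and a median of -0.55. Oasl1, the most abundant, was at 4.12, 12.4, 4.56 and 4.42 FPKM in METTL3-HKD livers and at 6.93, 12.5, 9.61 and 9.36 FPKM in METTL3-Flox livers (log2 fold change -0.72 ± 0.342, SE, adjusted p = 0.185). Once more METTL3-HKD liver 2 alone lay among the METTL3-Flox livers. Oas1a and Oas1g had log2 fold changes of -0.81 and -0.86, and Oasl2 one of -0.37. Oas1a and Oas1g share 57.6% and 45.7% of their words with other genes and their separate levels are uncertain too. Oas2 and Oas3 stood apart from this pattern, with log2 fold changes of -0.12 and -0.10 and 95% intervals of -1.11 to 0.87 and -0.94 to 0.74. Both turned positive under scaling to reads on genes (0.082 and 0.10). Oas2 was at 2.46 and 2.18 FPKM in METTL3-HKD livers 1 and 2, above every METTL3-Flox liver, and at 0.522 and 0.713 FPKM in livers 3 and 4, below every METTL3-Flox liver. Without METTL3-HKD liver 2, Oas1a, Oas1g and Oasl1 were downregulated.

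Among other antiviral effectors, 3 of 7 passed. Bst2, also named tetherin, which holds budding virions at the cell surface, was at 94.6, 160.2, 117.9 and 143.3 FPKM in METTL3-HKD livers and at 297.6, 145.0, 336.5 and 329.7 FPKM in METTL3-Flox livers. METTL3-Flox liver 2 was the low one of its group here and overlapped METTL3-HKD liver 2 (log2 fold change -1.06 ± 0.284, SE, adjusted p = 0.038). Mx2, an interferon-induced dynamin-like GTPase, was at 1.07, 2.69, 1.10 and 0.774 FPKM against 2.74, 5.65, 3.35 and 2.36 FPKM (log2 fold change -1.33 ± 0.378, SE, adjusted p = 0.045). Xaf1, a pro-apoptotic antagonist of XIAP, was at 1.40, 3.57, 1.16 and 0.918 FPKM against 4.02, 3.99, 4.33 and 3.03 FPKM (log2 fold change -1.26 ± 0.355, SE, adjusted p = 0.044). In both genes METTL3-HKD liver 2 was the highest of its group and overlapped METTL3-Flox livers.

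Cmpk2, a mitochondrial nucleotide kinase, Ifi44 and Ifi27 had log2 fold changes of -0.92, -1.30 and -0.53 and did not pass. Rsad2 (viperin), which makes a chain-terminating nucleotide, had one of 0.13 with a 95% interval of -0.65 to 0.91. Its 7.94 FPKM in METTL3-HKD liver 2 exceeded every METTL3-Flox liver, whereas the other 3 METTL3-HKD livers, at 2.88 to 3.06 FPKM, lay between the METTL3-Flox livers, which ran from 2.44 to 5.17 FPKM. Without METTL3-HKD liver 2 the log2 fold change of Rsad2 was -0.22 (adjusted p = 0.573). Without that liver Mx2, Xaf1, Cmpk2 and Ifi44 were downregulated.

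ISG15, a ubiquitin-like protein conjugated to newly made proteins, and its partners gave 0 of 4 past the test, 2 at an unadjusted p under 0.05 and 1 by voom. Isg15 was at 14.7, 46.6, 12.7 and 13.7 FPKM in METTL3-HKD livers and at 29.8, 34.1, 38.4 and 20.9 FPKM in METTL3-Flox livers (log2 fold change -0.69 ± 0.397, SE, adjusted p = 0.265). METTL3-HKD liver 2 was the highest of all 8 livers, and the other 3 lay below every METTL3-Flox liver. Usp18, which removes ISG15 and restrains signalling at IFNAR2, was at 2.07, 10.5, 2.86 and 2.01 FPKM against 7.52, 13.4, 9.86 and 8.48 FPKM (log2 fold change -1.48 ± 0.477, SE, adjusted p = 0.065). For Usp18, METTL3-HKD liver 2 lay inside the METTL3-Flox range and the other 3 lay below it. Parp14, an ADP-ribosyltransferase, and Trim25, the ubiquitin ligase that acts on RIG-I, had log2 fold changes of -0.88 and -0.12. That of Trim25 turned to 0.094 under scaling to reads on genes. Without METTL3-HKD liver 2, Isg15, Usp18 and Parp14 were downregulated and Trim25 was not called (adjusted p = 0.309).

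Of the interferon-inducible GTPases, which act on vacuoles that hold pathogens, 1 of 8 passed. Irgm1, a regulator of the other members of its family, was at 7.39, 16.3, 8.70 and 7.08 FPKM in METTL3-HKD livers and at 18.1, 21.0, 18.9 and 17.0 FPKM in METTL3-Flox livers. The groups did not overlap, though METTL3-HKD liver 2 was just below METTL3-Flox liver 4 (log2 fold change -1.003 ± 0.240, SE, adjusted p = 0.026). Igtp (Irgm3), which shares 11.8% of its words with other genes, had a log2 fold change of -1.11 (adjusted p = 0.069). The exons of Igtp overlap those of Irgm2 on the same strand over 8.01% of their length, and Irgm2 averaged 20.8 FPKM. How reads on the shared stretch were counted is not given, so the levels of Igtp and Irgm2 may not be independent. Iigp1 (Irga6) was the most abundant GTPase, at 183.1, 184.8, 211.2 and 148.2 FPKM against 127.1, 205.8, 181.7 and 128.0 FPKM. Its groups overlapped across nearly their whole range (log2 fold change 0.20 ± 0.185, SE, adjusted p = 0.495), and METTL3-HKD liver 2 was near the middle of its group. The guanylate-binding proteins Gbp2, Gbp3, Gbp5, Gbp6 and Gbp7 had log2 fold changes of -0.02, -0.69, -0.49, -0.91 and -0.52, none of which passed, and Gbp2 turned to 0.19 under scaling to reads on genes. Gbp6 shares 70.7% of its words with other genes. Without METTL3-HKD liver 2, Irgm1, Igtp, Gbp3 and Gbp6 were downregulated.

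The chemokines Cxcl9 and Cxcl10, ligands of CXCR3 that attract T cells and NK cells, had log2 fold changes of opposite sign, and neither passed the test with limma or voom, although Cxcl10 had an unadjusted p under 0.05. Cxcl9 was at 3.21, 2.64, 1.54 and 1.84 FPKM in METTL3-HKD livers and at 2.26, 3.67, 5.08 and 3.17 FPKM in METTL3-Flox livers (log2 fold change -0.60 ± 0.282, SE, adjusted p = 0.182). Cxcl10 was at 1.54, 3.22, 3.07 and 5.30 FPKM against 1.06, 1.68, 2.07 and 0.772 FPKM (log2 fold change 1.14 ± 0.387, SE, adjusted p = 0.076). METTL3-HKD livers 2, 3 and 4 lay above every METTL3-Flox liver and liver 1 did not, so that Cxcl10 is one of 4 members, with Oas2, Iigp1 and Cxcl9, whose highest METTL3-HKD liver was not liver 2. Cxcl10 was also upregulated without METTL3-HKD liver 1, and its exons overlap those of Art3 on the opposite strand over 5.91% of their length. The difference between the 2 chemokines was not tested.

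**Figure D3:**
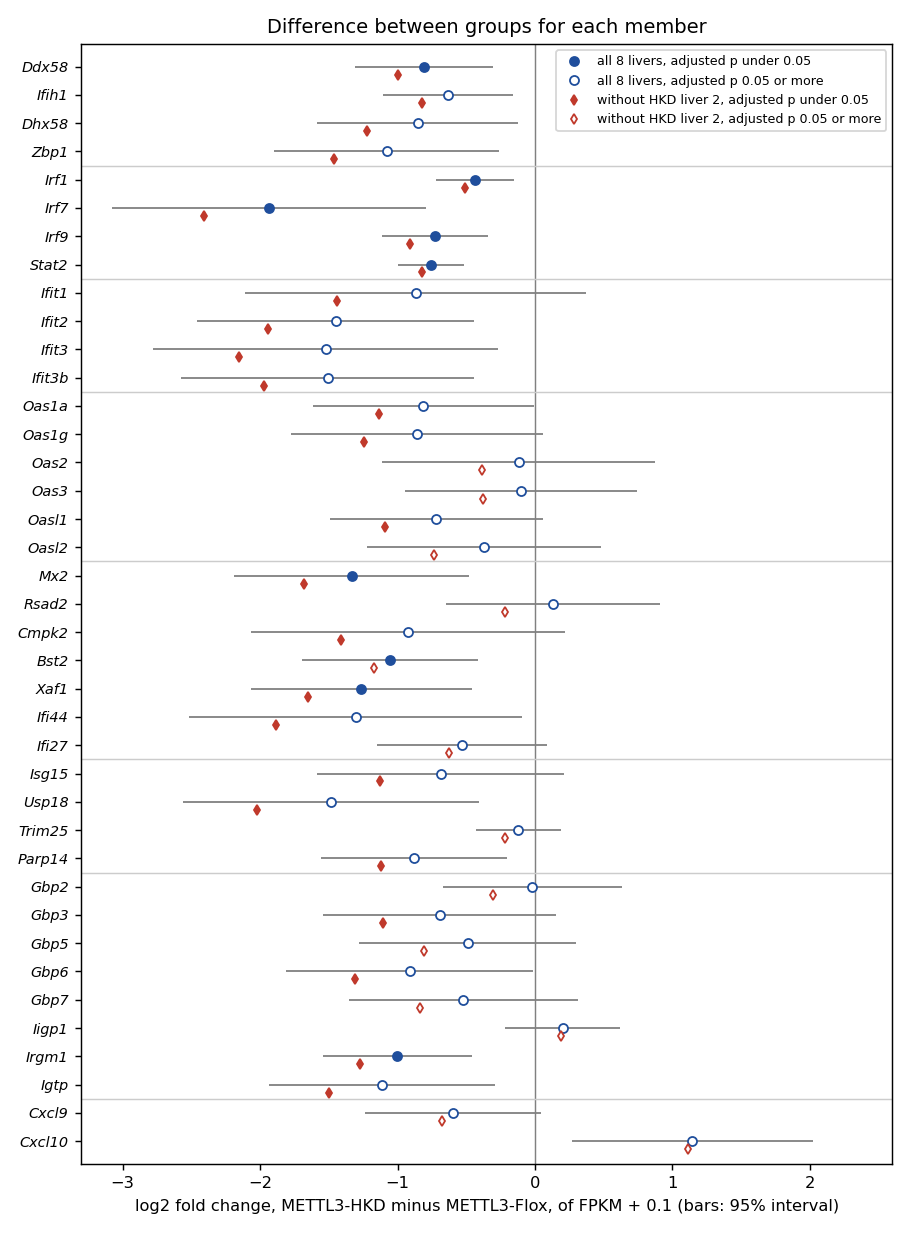
Log2 fold change of each member, METTL3-HKD minus METTL3-Flox, of FPKM + 0.1, from limma on all 8 livers (circles, with 95% intervals) and without METTL3-HKD liver 2 (diamonds); filled symbols have an adjusted p under 0.05. Filled circles mark 9 members, filled diamonds mark 26, and 36 of the 39 circles lie left of 0.

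The genes upstream of these ISGs were called at shares near those of all genes. Of 52 other genes of the pathway, 31 were expressed above the minimum, and 4 of these were upregulated and 2 downregulated, beside 9.05% and 6.63% of all genes, with 16 positive and 15 negative log2 fold changes and a median of 0.03. Among the ligands, 18 of 21 had 0 reads in all 8 livers, where a floor of 3 reads corresponds to 0.102 to 0.376 FPKM depending on the gene and liver. Ifnb1 had 1 read in METTL3-HKD liver 3, and Ifng had 1 read in METTL3-HKD liver 1 and 1 in METTL3-Flox liver 1. Apart from Ifnk, the ligands thus had at most 1 counted read in any liver of either group. The Ifna genes are paralogs, and how reads that match several genes were counted is not given in the sources used here. Counts of 0 therefore do not show that the transcripts were absent. Ifnk, interferon kappa, had 15, 18, 2 and 3 reads in METTL3-HKD livers and 1, 2, 2 and 0 in METTL3-Flox livers (log2 fold change 1.56 ± 0.606, SE, adjusted p = 0.111).

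Of the receptor subunits, Ifngr2 was upregulated. It was at 10.5, 9.998, 9.68 and 7.61 FPKM in METTL3-HKD livers and at 6.18, 6.83, 5.92 and 6.04 FPKM in METTL3-Flox livers, without overlap (log2 fold change 0.58 ± 0.115, SE, adjusted p = 0.014). Ifngr1 had a log2 fold change of 0.40 (adjusted p = 0.103). The type I receptor subunits Ifnar1 and Ifnar2 had log2 fold changes of -0.01 (95% interval -0.18 to 0.17) and -0.37 (adjusted p = 0.077), and Ifnlr1 and Il10rb, subunits of the type III receptor, 0.77 and 0.43, none of which passed. Jak2, the kinase bound to IFNGR2, was upregulated from 4.85 ± 0.685 FPKM in METTL3-Flox livers to 8.95 ± 2.29 FPKM in METTL3-HKD livers (SD, n = 4, log2 fold change 0.84, adjusted p = 0.024). Jak1 and Tyk2 had log2 fold changes of 0.11 and -0.23. Ptpn2, a phosphatase that acts on JAK1, was upregulated (log2 fold change 0.73, adjusted p = 0.036), and Irf2, an antagonist of IRF1, was downregulated (log2 fold change -0.54, adjusted p = 0.025).

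Of 16 tested genes that lead to interferon production, 1 was upregulated and 1 downregulated, both of them adaptors. Tmem173 (STING), the adaptor for cytosolic DNA, rose from 2.04 ± 0.481 FPKM in METTL3-Flox livers to 4.43 ± 1.26 FPKM in METTL3-HKD livers (SD, n = 4, log2 fold change 1.07, adjusted p = 0.018). Mavs, the adaptor of RIG-I and MDA5, fell from 31.6 ± 2.39 to 21.5 ± 2.32 FPKM (SD, n = 4, log2 fold change -0.56, adjusted p = 0.011). Neither gene's groups overlapped. Under scaling to reads on genes 4 pathway genes were upregulated and 0 downregulated, so that the fall of Mavs and Irf2 was no longer called.

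**Figure D4:**
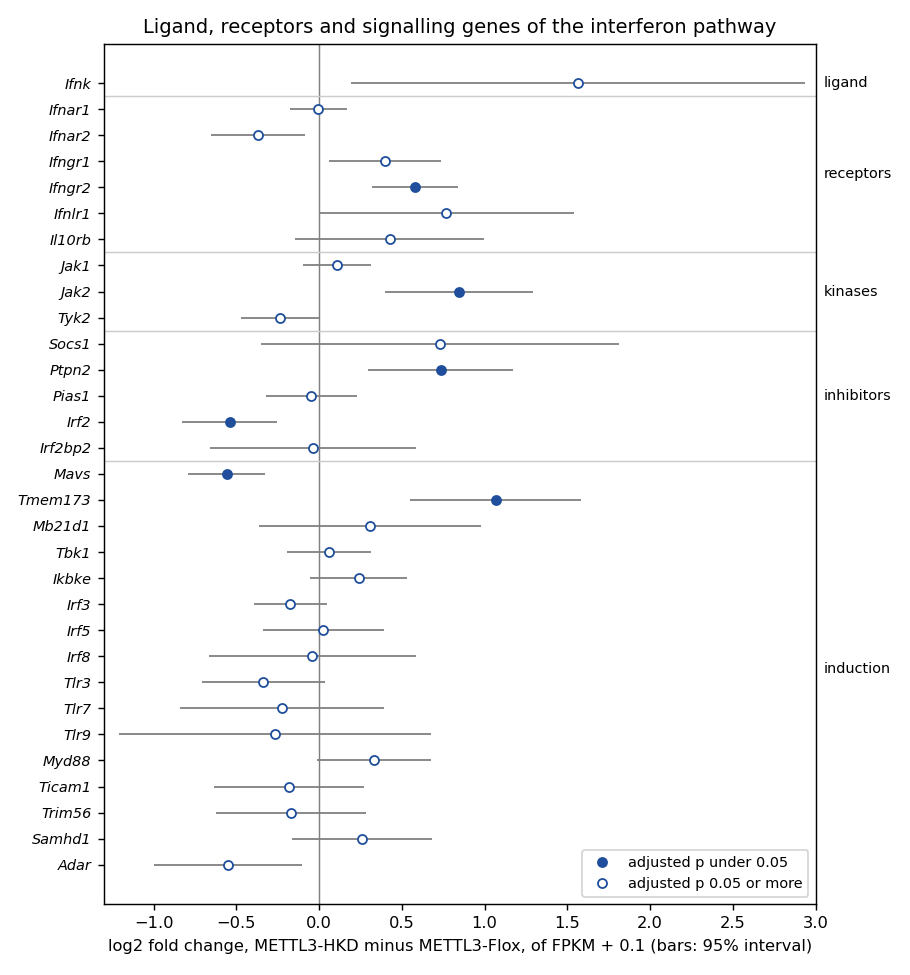
Log2 fold change with its 95% interval, METTL3-HKD minus METTL3-Flox, of FPKM + 0.1, for the 31 tested pathway genes that are not members, grouped by role; filled circles have an adjusted p under 0.05. Filled circles lie right of 0 for Ifngr2, Jak2, Ptpn2 and Tmem173 and left of 0 for Irf2 and Mavs.

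A further 73 interferon-inducible genes were counted beside the members, of which 71 were tested. Of these, 17 were downregulated and 2 upregulated, beside 6.63% and 9.05% of all genes, shares that also stand beside the groups below. A negative log2 fold change was found for 58 of the 71, beside 50.3% of all genes, and the median was -0.59. METTL3-HKD liver 2 was the highest of its group for 56 of the 71, beside 23.4% of all genes. In the antigen processing and presentation group, 5 of 19 were downregulated and 0 upregulated, among them the immunoproteasome subunit genes Psmb8 (-0.58), Psmb9 (-0.76) and Psmb10 (-0.53) in log2. Of 11 further GTPases, Irgm2 (-1.20) and Gbp8 (-1.45) were downregulated. Of 41 further antiviral effectors tested, 10 were downregulated and 2 upregulated. Ifi35, an interferon-induced leucine zipper protein, had the smallest adjusted p of the 73, at 8.72, 12.2, 10.6 and 8.79 FPKM in METTL3-HKD livers against 16.7, 15.7, 16.6 and 16.8 FPKM (log2 fold change -0.71 ± 0.118, SE, adjusted p = 0.0082). Ly6e, which blocks fusion of coronaviruses with the cell, was at 46.6, 73.7, 38.3 and 40.0 FPKM against 143.0, 88.9, 176.8 and 119.8 FPKM (log2 fold change -1.42, adjusted p = 0.011). Isg20, an RNA exonuclease, and Ifitm1, a restriction factor in the plasma membrane, were upregulated (log2 fold change 0.88 and 1.27, adjusted p = 0.028 and 0.023), whereas Ifitm3, its endosomal relative, was downregulated (log2 fold change -0.79, adjusted p = 0.016). Under scaling to reads on genes, 6 of the 71 were downregulated and 4 upregulated, beside 2.24% and 13.8% of all genes.

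Markers of several cell types differed between the same livers. Neutrophil markers were upregulated for 6 of 6 genes, and their summed level was 308.8 to 1438 FPKM in METTL3-HKD livers and 11.2 to 39.3 FPKM in METTL3-Flox livers. Markers of monocytes and macrophages were upregulated for 3 of 5 genes (sums of 98.4 to 284.5 and 35.9 to 65.7 FPKM). Kupffer cell markers were downregulated for 4 of 5 genes, Clec4f, Vsig4, Timd4 and Cd5l, with sums of 115.2, 132.1, 59.1 and 60.7 FPKM in METTL3-HKD livers and 336.3, 134.3, 188.0 and 181.0 FPKM in METTL3-Flox livers. METTL3-HKD liver 2 had the highest Kupffer cell sum of its group, just under METTL3-Flox liver 2, and its neutrophil sum of 354.0 FPKM was inside the range of its group. Hepatocyte markers had a negative log2 fold change for 6 of 6 genes (median -0.42), with 1 downregulated (Hnf4a). Their sums were 21647, 23398, 29665 and 31563 FPKM in METTL3-HKD livers, of which livers 1 and 2 lay below the METTL3-Flox range of 27845 to 31883 FPKM. Sinusoidal endothelial markers were downregulated for 1 of 5 (Oit3), with sums of 45.2 to 49.5 FPKM against 51.5 to 61.6 FPKM. Plasmacytoid dendritic cells, a main source of type I interferon in blood, had 4 of 5 markers under 1 FPKM in all livers, among them the defining Siglech at 0.0327 to 0.250 FPKM. The fifth, Cox6a2, which striated muscle also expresses, was at 4.24, 0.239, 7.49 and 0 FPKM in METTL3-HKD livers and at most 0.0967 FPKM in METTL3-Flox livers (log2 fold change 2.88, adjusted p = 0.149), and it was called upregulated without METTL3-HKD liver 4. Cox6a2 made up most of the sum of these markers in METTL3-HKD livers 1 and 3 (4.83 and 8.003 FPKM) and little of it in the other livers. The sums were 0.335 to 8.003 FPKM in METTL3-HKD livers and 0.617 to 1.49 FPKM in METTL3-Flox livers. None of 4 tested markers of T and NK cells and none of 2 of B cells passed, also at an unadjusted p under 0.05. Under scaling to reads on genes, 6 of 6 neutrophil markers stayed upregulated. By contrast, 0 of 5 Kupffer cell, 0 of 6 hepatocyte and 0 of 5 sinusoidal endothelial markers were then downregulated. All 5 Kupffer cell markers kept a negative log2 fold change (median -1.09). Without a minimum FPKM 1 Kupffer cell marker was downregulated, and without the mean-variance trend 2 were. The part of these cell types in the levels of the 39 genes was not tested.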

How the data were processed

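The authors deposited FPKM for 54532 genes in 8 livers, with the gene length used for each. Groups follow the sample labels. The build, GRCm38 (mm10), comes from the submitters' processing notes, and the aligner, counter, annotation and strand setting are not given in the sources used here. Multiplying FPKM by gene length and an effective library size gave whole reads (within 0.01) for 100% of values, which gave the depth, 15861245 to 18434488 reads on genes, and showed that the values had been scaled between libraries. Floors of 3 reads take in counting error alone.

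The 16645 genes that averaged 0.1 FPKM or more were compared as log2(FPKM + 0.1) with limma 3.58.1 in R 4.3.3 (lmFit, eBayes with a mean-variance trend, two-sided, Benjamini-Hochberg adjustment over all genes tested). Folds are on this scale and understate changes of low genes. Calls have an adjusted p under 0.05, and the study's fold threshold of 1 in log2 is given beside them. Single genes were also compared by exact permutation over 70 arrangements (scipy 1.17.1, Python 3.11.15). On simulated data for 16685 genes, limma called 196 of 200 genes changed by 2 in log2 and 8 unchanged genes. The simulation gave every gene the same dispersion and changed only genes that averaged at least 1 FPKM. The members had a median coefficient of variation of 63.0% in METTL3-HKD livers, a spread that was not simulated. Recovery at that spread, or of smaller changes such as the median of -0.81 over the members, was not tested.

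The members and lists were chosen with earlier results of these data known. All 39 members are named. A gene of the pathway is not reported here. Values per liver are given for members that passed the test, that did not overlap, or that had the highest mean of their role. Other genes are named by adjusted p, up to 5 a list, or by role. Outside this rule, the values per liver of Usp18, Cxcl10, Oas2 and Rsad2, and the genes Ptpn2, Psmb8, Irgm2, Gbp8, Isg20, Ifitm1 and Ifitm3, were added after their values were seen. Alternatives were a pseudocount of 1 FPKM, a minimum of 1 FPKM or none, no trend, array weights, a block for the replicate number, scaling to reads on genes, voom on the rebuilt reads, and omission of each liver. Omission of both livers numbered 2 was added after the values were seen. Shared 50-base words were counted in GENCODE M21 transcripts, and promoters came from RefSeq (GRCm38.p6).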

Additional observations from a re-analysis of the deposited data

Results flagged for a closer look

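In a group of 4 livers, a highest or lowest value was singled out when its gap to the nearest liver divided by the range of the group exceeded Dixon's 95% critical value. For normally distributed values chance passes it in about 1 of 20 groups. The rule was applied to FPKM, and the share of all tested genes that pass was not counted, so whether the members exceed it is not known. Of 78 groups of 4 formed by the 39 members, 14 (17.9%) passed, and 13 of these were METTL3-HKD liver 2 as the highest of its group. They were Dhx58 at 6.91, Irf7 at 29.8, Irf9 at 10.6, Ifit1 at 16.0, Ifit2 at 3.49, Ifit3 at 18.8, Oasl1 at 12.4, Rsad2 at 7.94, Cmpk2 at 4.60, Ifi44 at 2.80, Isg15 at 46.6, Usp18 at 10.5 and Igtp at 28.1 FPKM. The remaining one was Irf1 in METTL3-Flox liver 1, the lowest of its group at 7.98 FPKM. These 13 values come from 1 liver and are not independent of each other.

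Of 62 groups formed by pathway genes, 4 (6.45%) passed. Ikbke, a kinase that phosphorylates IRF3 and IRF7, was highest in METTL3-HKD liver 1 at 4.69 FPKM. Ptpn2 was highest in METTL3-Flox liver 1 at 5.99 FPKM, and Mb21d1 (cGAS) and Tlr3, sensors of DNA and double-stranded RNA, were highest in METTL3-Flox liver 2 at 0.330 and 2.31 FPKM.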

How the results depend on the processing

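Of 661 pairs of a member and an alternative, 520 kept direction and side of the threshold, 75 lost and 51 gained the call, and 15 changed sign. The 9 downregulated members became 3 without a minimum, 3 without the trend, 14 with array weights, 1 with scaling to reads on genes, 19 without both livers numbered 2, and 1 to 26 when single livers were omitted, while upregulated members rose from 0 to 1 with scaling and to between 0 and 1 on omission. The 26 belong to omission of METTL3-HKD liver 2, and the 1 to omission of METTL3-HKD liver 1 or 4 or METTL3-Flox liver 3 or 4. Omitting METTL3-HKD liver 3 gave 3 and METTL3-Flox liver 2 gave 4. Past both thresholds, 5 downregulated members became 2 with a pseudocount of 1, 1 without a minimum, 1 without the trend, 9 with array weights, 9 with voom, 0 with scaling, 15 without both livers numbered 2 and 0 to 21 on omission, and 0 upregulated members became 1 with scaling and 0 to 1 on omission. The median of the members ran from -1.12 to -0.60 over all alternatives. For all genes, 1506 upregulated and 1104 downregulated became 2309 and 374 with scaling (the upregulated share of calls went from 57.7% to 86.1%), 395 and 198 without both livers numbered 2, and 747 to 1659 and 355 to 1148 on omission, with 682 downregulated without a minimum. They became 1725 and 1339 with array weights and 1246 and 746 without the trend. Past both thresholds, the 253 downregulated of all genes became 88 with a pseudocount of 1, 163 without a minimum and 193 without the trend. Array weights gave 287 by that rule and voom 317. Pathway genes, 4 upregulated and 2 downregulated, became 0 and 0 without both livers numbered 2, and 2 to 5 and 1 to 2 on omission, with 0 downregulated under scaling. Further interferon-inducible genes, 2 upregulated and 17 downregulated, became 4 upregulated with a minimum of 1 FPKM, with array weights and with scaling, 6 downregulated with scaling, 0 upregulated without both livers numbered 2, and 0 to 3 and 6 to 31 on omission. Signs changed for Oas2, Oas3, Trim25 and Gbp2 with scaling (0.082, 0.10, 0.094 and 0.19), for Gbp2 with a pseudocount of 1 (0.00042), and for Rsad2 without both livers numbered 2 (-0.22). On omission of single livers, Oas2 ran from -0.44 to 0.24, Oas3 from -0.38 to 0.20, Gbp2 from -0.30 to 0.17 and Rsad2 from -0.22 to 0.32. The cause of these changes was not tested.

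Over all tested genes, deviations of same-numbered livers correlated at 0.07, -0.08, -0.01 and -0.03, which shows no general pairing by replicate number. A pairing that moves only a small set of genes cannot be told from these values. With a block for the replicate number, 12 members were downregulated, 6 of them among the 9, all genes gave 971 upregulated and 645 downregulated, and 1 pathway gene was downregulated. Of the members, 17 had fewer than 100 reads in some liver, so counting error weighs more on them. Its effect on the calls was not tested.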
